A study of Mus musculus with 74 samples.

Results

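The genes described here are 38 components of the Nodal, activin and BMP signalling pathways, out of 37620 genes in the expression tables of mouse embryonic stem (ES) cells. They were chosen by name and by known role, and all 38 were found in the tables. The Nodal and activin arm holds 16 genes, the BMP arm 14 and the TGF-beta arm 4, and the remaining 4 genes (Acvr2a, Acvr2b, Smad4 and Smad7) serve several arms.

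RNA-seq was performed on 35 libraries in 12 conditions, all from ES cells grown on gelatine with serum. SunTag cells derive from E14Tg2a and carry a CRISPR activator (dCas9 that recruits VP64) under the control of doxycycline (Dox) and directed to promoters by guide RNAs. Nanog SunTag cells carry a guide to the endogenous Nanog promoter, with 1 clone from each of the parental clones C1 and C2, and Nanog/Otx2 SunTag cells (C1ON3 and C2ON3) were made from these 2 clones by adding a guide to Otx2. Both lines were cultured for 3 days with LIF (10 ng/mL) or without it, each with Dox (1 µg/mL) or without. For the Nanog cells this gave 3 libraries with LIF and no Dox, 2 with LIF and Dox, 3 with neither and 3 with Dox alone, and for the Nanog/Otx2 cells 3, 4, 4 and 4 in the same order. The 44iN cells lack endogenous Nanog and carry a Nanog transgene that Dox keeps on. All were grown in LIF, and 2 libraries were made with Dox, 2 at 24 h of Dox removal and 2 from cells kept without Dox for the long term. The study's methods state that long-term cells were kept under G418 selection. Wild-type Tg2a cells gave 3 libraries in serum with LIF. Every SunTag line contributed 2 clones, so a difference between lines or clones can belong to a clone. No library had Dox without a Nanog guide or transgene, so effects of Dox itself and of Nanog cannot be told apart. Values below are normalised counts (estimated counts divided by a size factor for each library), given library by library, C1 before C2 in SunTag cells.

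Nodal, the activins and GDF ligands bind pairs of type I and type II serine/threonine kinase receptors and lead to phosphorylation of Smad2 and Smad3. BMPs use other type I receptors and lead to phosphorylation of Smad1 and Smad5, and both kinds of receptor-activated Smad enter the nucleus with Smad4. In ES cells, BMP4 is known to act with LIF in self-renewal through Id genes, and Nodal and activin signalling is known to support the later, primed pluripotent state of the epiblast. LIF is a cytokine that keeps mouse ES cells undifferentiated through Stat3, and Nanog is a homeodomain factor that can stand in for it when abundant.

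The sequences that set the experiment are the guides, which were matched to mm9. The guide to Nanog lies at chr6:122657269-122657291 on the plus strand, 229 bases upstream of the start of Nanog, and the guide to Otx2 at chr14:49282646-49282668 on the minus strand, 111 bases upstream of the nearest annotated transcript start of Otx2. Each matched 1 site in the genome followed by NGG, and the capitals mark this PAM.
Nanog guide and PAM: cttcccactagagatcgccaGGG
Otx2 guide and PAM: aatgtagagcgtgcatttggAGG

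The stretches of 250 bases upstream of 4 members are shown because the results turn on these genes: Inhbb and Bmp4 fell furthest on LIF withdrawal, and Lefty1 and Lefty2 are neighbours with similar sequence. They are on mm9 and written 5′ to 3′ on the strand of the gene, at chr1:121318826-121319075 (minus) for Inhbb, chr14:47010345-47010594 (minus) for Bmp4, chr1:182864903-182865152 (plus) for Lefty1 and chr1:182822989-182823238 (plus) for Lefty2. Capitals mark CAGAC, the short Smad-binding element, read on either strand.
Inhbb: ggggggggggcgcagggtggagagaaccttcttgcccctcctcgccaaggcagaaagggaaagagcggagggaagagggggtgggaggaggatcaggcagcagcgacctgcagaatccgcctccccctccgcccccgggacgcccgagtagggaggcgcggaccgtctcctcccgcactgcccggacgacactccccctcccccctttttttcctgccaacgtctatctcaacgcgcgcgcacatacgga
Bmp4: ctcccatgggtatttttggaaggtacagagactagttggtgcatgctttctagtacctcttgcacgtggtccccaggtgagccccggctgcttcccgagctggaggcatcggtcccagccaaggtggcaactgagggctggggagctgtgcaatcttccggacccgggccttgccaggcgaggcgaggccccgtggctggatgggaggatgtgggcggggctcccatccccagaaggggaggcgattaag
Lefty1: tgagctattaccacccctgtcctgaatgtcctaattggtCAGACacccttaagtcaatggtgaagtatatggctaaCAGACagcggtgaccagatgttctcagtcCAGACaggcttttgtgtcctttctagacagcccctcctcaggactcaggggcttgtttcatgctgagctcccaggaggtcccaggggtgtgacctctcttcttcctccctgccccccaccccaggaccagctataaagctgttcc
Lefty2: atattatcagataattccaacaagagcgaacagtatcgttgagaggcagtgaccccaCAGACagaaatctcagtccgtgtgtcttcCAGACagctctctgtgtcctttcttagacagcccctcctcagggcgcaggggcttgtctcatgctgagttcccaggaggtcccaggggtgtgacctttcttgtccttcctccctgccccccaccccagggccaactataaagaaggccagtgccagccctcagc

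CAGAC was present 3 times before Lefty1, between 145 and 211 bases from its start, and 2 times before Lefty2, at 164 and 193 bases. It was absent from the windows of Inhbb and Bmp4. This short motif is common: it was found in 18 of the 38 members' windows (47.4%) and in 40.9% of the windows of all 22375 protein-coding genes placed. In this paragraph, all genes means these protein-coding genes. The GC-rich Smad element GGCGCC was found in 11 members (28.9%), against 11.1% of all genes. The Stat motif TTCNNNGAA (6.83% of all genes), the Foxh1 motif AATCCACA (0.733%), the palindrome GTCTAGAC (0.143%) and the octamer ATGCAAAT (1.62%) had no match in any of the 38 windows. These are matches of letters on both strands and not measured binding. Base composition was not matched in any of these shares. GGCGCC holds only G and C. Among windows with it, that of Tgfbr2 had 65.2% of these letters and that of Pcsk6 82.8%. Among windows without it, that of Tdgf1 had 42% and that of Acvr2a 82%. The part of base composition in the share of GGCGCC was not tested. GTCTAGAC and CAGAC end in the same 4 letters but neither contains the other.

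The targeted genes behaved as follows in the SunTag cells. Nanog had 29487, 23345 and 21940.0 normalised counts with LIF, 93813 and 75226 after Dox, 7032, 8484 and 2234 without LIF and 54732, 55641 and 45041 without LIF but with Dox. Every library with Dox lay above those without, but with LIF the log2 fold change of 1.74 in the Nanog cells was not called (adjusted p = 0.079). Nanog ranged in Nanog/Otx2 cells from 18320 to 20533, from 40628 to 48558, from 1974 to 6867 and from 31697 to 48471 in the same order of conditions. Otx2 without LIF and with Dox reached 7347, 7311, 6827 and 7206 in the Nanog/Otx2 cells, against 2248, 2484 and 2619.5 in the Nanog cells. The total count per library ranged from 6107512 to 92244655, with a median of 29298745.

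Cell state markers moved with LIF and Dox beside every result on withdrawal below. The summed level of 4 epiblast-like markers (Fgf5, Otx2, Pou3f1 and Dnmt3b) was 3647 to 7176 in Nanog cells with LIF, 71205 to 84585 without LIF and 32965 to 36848 without LIF but with Dox. The sum of 7 ES cell markers took the opposite course, from 91669 to 112263 with LIF to 27008 to 35669 without it and 46645 to 50652 with Dox, each of the 7 reaching 10 normalised counts in at least 1 library of all 12 conditions. The epiblast-like sum in Nanog/Otx2 cells was 4555 to 12092 with LIF, 88542 to 100878 without and 52265 to 61925 with Dox. The sum of the neuroectoderm markers Pax6 and Nes also differed, from 162 to 345 with LIF to 1170.3 to 3649 without it in Nanog cells, while 4 trophectoderm markers summed to at most 235 in any library. The sum of 5 primitive streak and mesendoderm markers (T, Mixl1, Eomes, Gsc and Evx1) was 91.1 to 194 in Nanog cells with LIF, 509 to 785 with LIF and Dox, 455 to 658 without LIF and 489 to 788 with Dox and no LIF. In Nanog/Otx2 cells it was 113 to 132, 193 to 387, 208 to 314 and 306.5 to 492.5 in the same order. The part of these markers in the results was not tested, and in bulk libraries fewer cells of a type and less RNA per cell cannot be told apart. Some members also differed between the clones: in all 8 SunTag conditions every C1 library lay above every C2 library for Lefty1 and Lefty2, and below for Inhbb and Bmp1.

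Withdrawing LIF changed most of the members tested in both SunTag lines. Without LIF most of the ligands called, the coreceptor Tdgf1 and the convertase Pcsk6 were lower, and all receptors called, Smad4, Foxh1 and the antagonist Fst were higher. Of the ligands 2 rose and 5 fell of 10 tested in Nanog cells, and 3 rose and 6 fell of 9 in Nanog/Otx2 cells. Of the 36 members tested in the Nanog cells, 13 rose and 8 fell, where 20.2% of all genes tested rose and 21.3% fell. Of the 34 tested in the Nanog/Otx2 cells, 14 rose and 11 fell, beside 24.6% and 25.2% of all genes. By arm in the Nanog cells, 6 rose and 5 fell of 15 tested in the Nodal and activin arm. In the BMP arm 4 rose and 2 fell of 13, and in the TGF-beta arm 1 rose of 4. Of the 4 shared genes 2 rose and 1 fell. In the Nanog/Otx2 cells these arms had 6 up and 7 down of 15, 4 and 2 of 11, 1 and 1 of 4, and 3 and 1 of 4. In both lines 11 members rose and 8 fell, and no member was called in opposite directions. The median absolute log2 fold change was 0.85 for the members and 0.60 for all genes in the Nanog cells, and 0.95 and 0.43 in the Nanog/Otx2 cells. Among the members called, the libraries of the 2 conditions overlapped for Tgfbr1 in the Nanog cells. In the Nanog/Otx2 cells they overlapped for Gdf3, Lefty2, Acvr2a, Smad3 and Tgfb2. Overlap was not counted over all genes called.

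**Figure D1:**
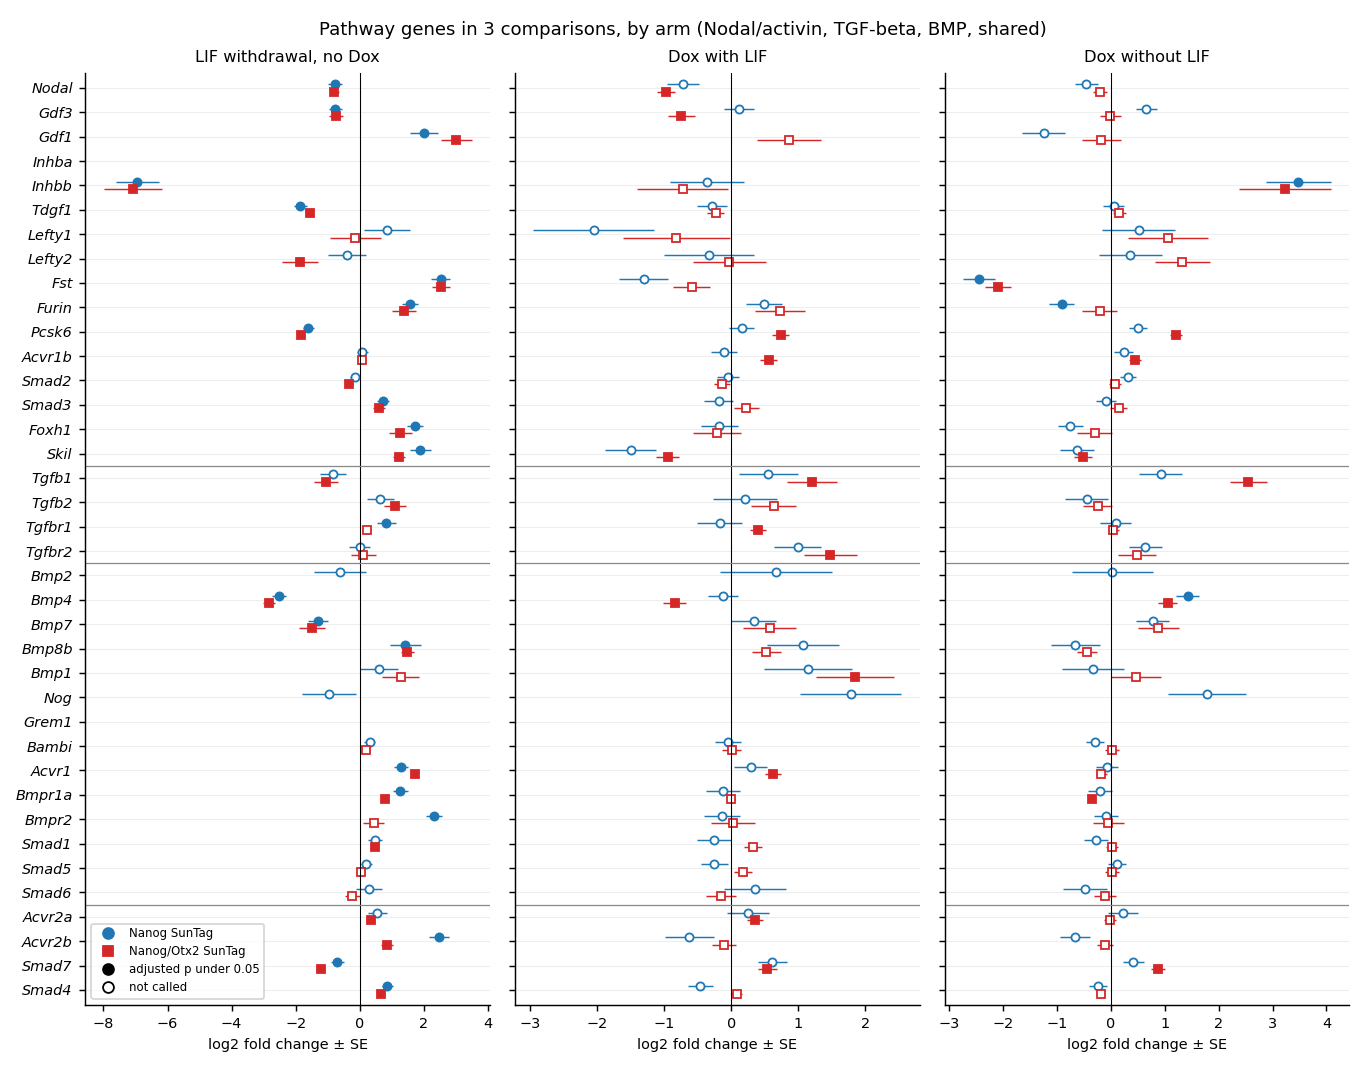
Log2 fold change with its standard error (x axis) of each member tested (y axis, by arm) on LIF withdrawal, with Dox in LIF and with Dox without LIF, in Nanog (blue circles) and Nanog/Otx2 (red squares) SunTag cells; filled symbols were called. Inhbb and Bmp4 stand at the left on withdrawal and at the right with Dox without LIF, and Fst on the opposite sides; Gdf1 in Nanog cells with Dox and LIF is left out because its Dox libraries are at 0.

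Inhbb, which encodes the beta-B chain of activin, showed the largest fold change of any member on withdrawal. The gene lies at chr1:121312042-121318825 on the minus strand. In Nanog cells it had 2032, 4576 and 4167 normalised counts with LIF and 4.89, 31.0 and 56.5 without, a log2 fold change of -6.95 ± 0.67 (SE; adjusted p = 1.7e-05). In Nanog/Otx2 cells it had 1354, 1942 and 6291 with LIF and 4.35, 17.2, 28.3 and 60.1 without (-7.08 ± 0.91, adjusted p = 1.5e-05). No library without LIF approached those with LIF, and the mean level left was 0.858% and 0.860% of that with LIF. Inhba, the beta-A chain of activin, was at 0 in 25 of the 35 libraries, never exceeded 5.17 and was not tested.

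Dox returned a part of Inhbb in the absence of LIF. It rose to 238, 240.0 and 483 in Nanog cells (3.48 ± 0.61, adjusted p = 0.0073) and to 31.7, 104, 379 and 345 in Nanog/Otx2 cells (3.23 ± 0.85, adjusted p = 0.017). All Nanog libraries with Dox lay above those without it, whereas in the Nanog/Otx2 cells a C1 library with Dox lay among the C2 libraries without it, although each clone was higher with Dox. The mean level with Dox remained at 8.92% and 6.73% of the level with LIF. With LIF, the Dox libraries had 2275 and 3332 in Nanog cells and 1070.4, 1506, 2113 and 2775 in Nanog/Otx2 cells, and both sets overlapped those without Dox and were not called.

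Bmp4, the main BMP ligand of ES cells, followed the same course with a smaller range (chr14:47003195-47010344, minus strand). It fell from 506, 722 and 737 with LIF to 119.7, 129 and 98.3 without in Nanog cells (-2.52 ± 0.22, adjusted p = 9.4e-06) and from 425, 671 and 708 to 86.9, 96.4, 64.1 and 93.5 in Nanog/Otx2 cells (-2.85 ± 0.18, adjusted p = 1.6e-08). When Dox was given without LIF, it rose to 349.7, 324 and 240.4 (1.43 ± 0.21, adjusted p = 0.003) and to 168, 191, 162 and 168 (1.06 ± 0.17, adjusted p = 0.00071). Libraries with and without Dox did not overlap in either line, and the means with Dox were 46.5% and 28.6% of the level with LIF, from 17.7% and 14.2% without it. With LIF, Dox had no called effect in Nanog cells, where the libraries had 625 and 590.2, but lowered Bmp4 in Nanog/Otx2 cells to 286, 353, 313 and 361 (-0.85 ± 0.17, adjusted p = 0.0035).

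The LIF by Dox interaction tests whether the effect of Dox without LIF differs from its effect with LIF. In Nanog cells it was called for 2 of 36 members, Inhbb and Bmp4, both higher, where 1.32% of all genes were called higher and 0.608% lower. Their interactions were 3.84 ± 0.84 (adjusted p = 0.041) and 1.55 ± 0.32 (adjusted p = 0.033), and each call was kept in only 2 of the 11 fits that left out a library, with values between 3.26 and 4.68 and between 1.41 and 1.69. In Nanog/Otx2 cells 3 of 34 members were called higher (5.15% of all genes) and 4 lower (4.55%). The higher were Inhbb (3.95 ± 1.09, adjusted p = 0.033, kept in 6 of 15 fits without a library), Bmp4 (1.90 ± 0.24, adjusted p = 0.00027, kept in all 15) and Nodal (0.77 ± 0.19), and the lower were Fst, Bmp8b (-0.97 ± 0.28, kept in 2 of 15), Acvr1 and Bmpr1a (kept in 12 of 15). With the clone as a block the interaction was called for 4 members in the Nanog cells (4.54% of all genes), adding Lefty1 and Furin. With the clone and the number in the library title as a block it was called for 20 in the Nanog/Otx2 cells (21.8%).

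Nodal, the ligand that gives the arm its name, fell on withdrawal by less than Inhbb and Bmp4 (chr10:60880720-60888086, plus strand). It had 1100.5, 1544 and 1610.5 with LIF and 964, 672 and 876 without in Nanog cells (-0.78 ± 0.21, adjusted p = 0.012), and 1493, 1659.5 and 1764 against 1164, 968, 780.3 and 919 in Nanog/Otx2 cells (-0.80 ± 0.14, adjusted p = 0.00023). The ranges did not overlap in either line, though the first call was lost without the C1-2 library that had neither LIF nor Dox (-0.63, adjusted p = 0.058). With Dox and no LIF Nodal had 559.9, 637 and 606 in Nanog cells and 889, 786, 696 and 869 in Nanog/Otx2 cells, which was not called in either. With LIF, Dox lowered it in Nanog/Otx2 cells to 731, 901, 707 and 953 (-0.97 ± 0.14, adjusted p = 0.00034), and in Nanog cells it had 1050.0 and 686 (-0.73 ± 0.24, not called, adjusted p = 0.2). Its interaction in the Nanog/Otx2 cells was positive, the effect of Dox being more negative with LIF, and that call was lost without the C1ON3-2 library that had LIF and no Dox (0.75, adjusted p = 0.056).

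Gdf3, a ligand that acts with Nodal, fell by 0.77 ± 0.20 and 0.74 ± 0.20 on the log2 scale on withdrawal, and the second call was lost without the C1ON3-1 library with LIF and no Dox (-0.55, adjusted p = 0.056). Without LIF it had 1088, 1194 and 942 in Nanog cells and 1668, 2018 and 1315 with Dox, which did not overlap. The difference of 0.66 ± 0.20 was not called (adjusted p = 0.089), but was in the fit blocked by clone (0.65, adjusted p = 0.026) and by DESeq2 (adjusted p = 0.044). In Nanog/Otx2 cells the values were 1548, 1496, 1268 and 1185 without Dox and 1369, 1578, 1220.4 and 1176 with it, which overlapped. With LIF, Dox lowered Gdf3 in the Nanog/Otx2 cells (log2 fold change -0.75 ± 0.20), a call kept in 12 of 15 fits without a library.

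Among the other ligands, Bmp7, which acts in many tissues through the BMP receptors, fell on withdrawal by 1.31 ± 0.31 and 1.49 ± 0.41 on the log2 scale, and did not exceed 129.5 normalised counts in any library. Bmp8b, a close copy of Bmp8a (4.69% of its 65-base windows are shared), rose from 39.6, 44.8 and 41.7 to 104, 99.1, 168 and 112 in Nanog/Otx2 cells (1.49 ± 0.22) and by 1.42 ± 0.49 in Nanog cells. Gdf1 rose from 29.5, 23.2 and 9.26 to 181, 222, 207 and 179 (3.02 ± 0.48) and from 10.7, 21.8 and 7.49 to 63.5, 49.1 and 50.4, but all of its exons lie within Lass1 on the same strand, so these counts cannot be assigned to either gene. The rise in Nanog cells was kept in 7 of 11 fits without a library for Bmp8b. Bmp2, another BMP ligand, reached at most 38.8 in any library.

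Tgfb1, a TGF-beta ligand, answered Dox in the Nanog/Otx2 cells. Without LIF it had 61.5, 56.8, 24.1 and 25.6 normalised counts and with Dox 295, 376, 139.6 and 170.3 (2.55 ± 0.35, adjusted p = 0.00016), with no overlap and with C1 libraries above C2 libraries in both conditions. With LIF it rose from 77.1, 94.6 and 88.0 to 227, 226, 179.7 and 159 (1.20 ± 0.37, adjusted p = 0.031), a call kept in 9 of 15 fits without a library. Withdrawal lowered it in these cells (-1.05 ± 0.37), a call kept in 11 of 15 such fits. In Nanog cells without LIF it had 70.0, 67.2 and 35.6 and with Dox 113, 115 and 95.8, also without overlap but not called (adjusted p = 0.24). Tgfb2 lay between 5.36 and 40.1 in SunTag cells and rose on withdrawal in Nanog/Otx2 cells (1.10 ± 0.33), a call lost without the C1ON3-1 library with LIF and no Dox (0.76, adjusted p = 0.11).

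**Figure D2:**
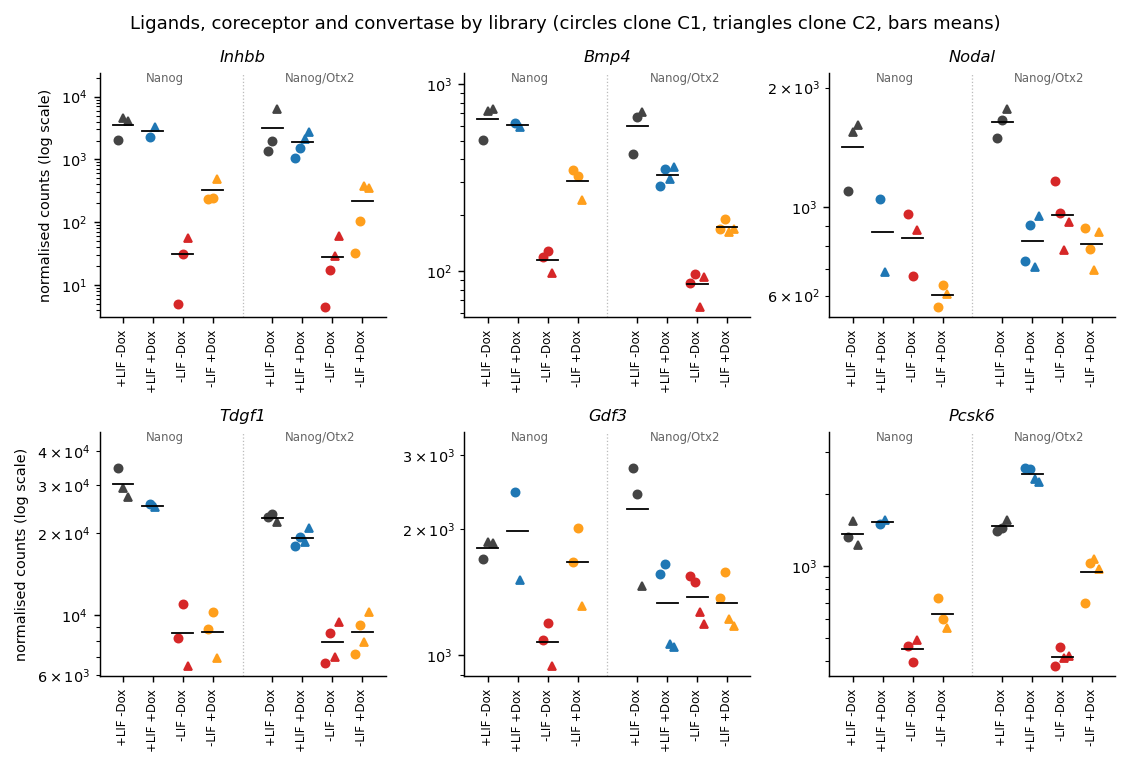
Normalised counts (y axis, log scale) of Inhbb, Bmp4, Nodal, Tdgf1, Gdf3 and Pcsk6 in every SunTag library by condition (x axis), with circles for clone C1, triangles for C2 and bars for means. Without LIF, Inhbb and Bmp4 are higher with Dox in both lines, Tdgf1 is at the same low level with and without Dox, and Pcsk6 is higher with Dox most clearly in Nanog/Otx2 cells.

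Tdgf1, or Cripto (chr9:110842114-110848662, minus strand), is the coreceptor through which Nodal reaches its receptors. It had the highest level per kb of exon of the 38 genes in all 12 conditions, with 15772 normalised counts per kb in Nanog cells with LIF against 849 for Gdf3, the next. It fell from 34631, 29347 and 27104 to 8227, 10911 and 6465 on withdrawal in Nanog cells (-1.85 ± 0.21, adjusted p = 5e-05) and from 22809, 23410.0 and 22021 to 6642, 8600.1, 7006 and 9432 in Nanog/Otx2 cells (-1.55 ± 0.13). No library without LIF reached those with it. When Dox was given without LIF, the libraries had 8899.7, 10219 and 6914 in Nanog cells and 7179, 9165, 7915 and 10218 in Nanog/Otx2 cells, which overlapped those without Dox. The mean level without LIF was 28.1% of that with LIF before Dox and 28.6% with Dox in Nanog cells, and 34.8% and 37.9% in Nanog/Otx2 cells.

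Pcsk6 and Furin encode proprotein convertases that cleave the precursors of Nodal and related ligands, and they moved in opposite directions. Pcsk6 fell from 1323, 1532 and 1219.7 to 463, 397 and 490.5 without LIF (-1.61 ± 0.17) and from 1394, 1444 and 1551 to 380.1, 458, 411 and 421 (-1.84 ± 0.12). Furin rose from 83.0, 112 and 89.9 to 317, 323 and 216 (1.56 ± 0.24) and from 153, 173 and 83.3 to 562, 481, 247 and 243 (1.38 ± 0.38), without overlap in either line. With Dox and no LIF, Pcsk6 rose to 696, 1025, 1069.5 and 971 in Nanog/Otx2 cells (1.21 ± 0.12, adjusted p = 1e-05) and had 732, 600.1 and 548 in Nanog cells (0.51 ± 0.16, not called, adjusted p = 0.11). All of these libraries lay above those without Dox. Furin had 139, 177 and 133 in Nanog cells with Dox and no LIF, below all libraries without Dox (-0.90 ± 0.23, adjusted p = 0.047), and the call was kept in 3 of 11 fits without a library. With LIF, Dox raised Pcsk6 to 2559.7, 2539, 2314 and 2231 in Nanog/Otx2 cells (0.74 ± 0.12).

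**Figure D3:**
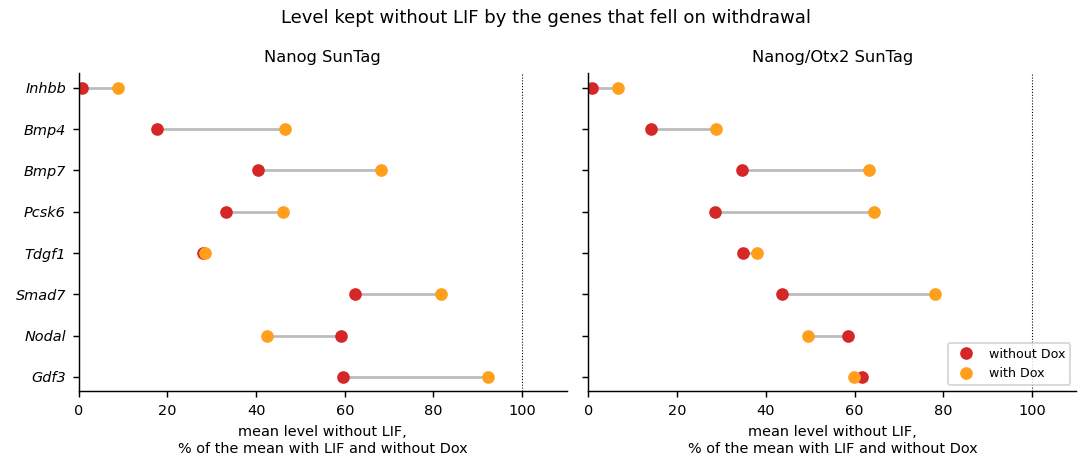
Mean level without LIF, as a percentage of the mean with LIF and no Dox (x axis), for the 8 members that fell on withdrawal in both SunTag lines (y axis), without Dox (red) and with Dox (orange); points are means over 3 or 4 libraries. Inhbb goes from 0.858% to 8.92% and Bmp4 from 17.7% to 46.5% in Nanog cells, Tdgf1 is at 28.1% and 28.6%, and Nodal has a lower mean with Dox.

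Fst, follistatin, which binds and neutralises activins, ran opposite to Inhbb (chr13:115242470-115249159, minus strand). It rose on withdrawal from 83.0, 63.7 and 74.9 to 499, 415 and 375 in Nanog cells (2.53 ± 0.30, adjusted p = 7.6e-05) and from 57.7, 48.2 and 41.7 to 395, 343, 256 and 213 in Nanog/Otx2 cells (2.54 ± 0.28, adjusted p = 3.6e-06). When Dox was given without LIF, it fell to 55.1, 65.2 and 113 (-2.44 ± 0.29, adjusted p = 0.00078) and to 53.1, 57.2, 72.3 and 92.1 (-2.09 ± 0.24, adjusted p = 3.7e-05). No library with Dox reached those without, and the mean was back to 105% of the level with LIF in Nanog cells and 140% in Nanog/Otx2 cells. With LIF, Dox libraries had 28.0 and 31.4 in Nanog cells, below those without Dox but not called (adjusted p = 0.14; DESeq2 adjusted p = 0.037). The interaction was called in Nanog/Otx2 cells (-1.50 ± 0.37, adjusted p = 0.018) and lost without the C1ON3-2 library that had LIF and no Dox (-1.46, adjusted p = 0.061).

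Lefty1 and Lefty2, secreted inhibitors of Nodal that are themselves known targets of the pathway, share 14% and 9.31% of their 65-base windows with each other, so some reads may be split between them. In Nanog cells Lefty1 had 348, 82.1 and 94.9 with LIF, 52.2 and 33.2 with LIF and Dox, 443, 398 and 97.1 without LIF and 625, 567 and 128 with Dox and no LIF, with the C1 libraries highest in each condition. It was not called in any SunTag comparison without a block for the clone. With the block, Dox lowered it in Nanog cells with LIF (-2.01, adjusted p = 0.016) and raised it in Nanog/Otx2 cells without LIF (1.03, adjusted p = 0.01). In the latter the values were 2737, 1017, 913 and 333 without Dox and, in the same order of clone and title number, 5839.8, 2069.9, 1802 and 614 with it. Each was higher than the library of the same clone and number.

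Lefty2 fell on withdrawal in Nanog/Otx2 cells, from 1626, 1185 and 356 to 507, 363, 178 and 157 (-1.87 ± 0.55, adjusted p = 0.01). The groups overlapped through the C2 library with LIF, and the call was lost without the C1ON3-1 library with LIF and no Dox (-1.44, adjusted p = 0.066). With Dox and no LIF it had 1134, 827, 624 and 409.7, and this difference was called with the block only (1.43, adjusted p = 2.6e-05). In Nanog cells Lefty2 had 793, 327 and 258 with LIF and 366, 588 and 111 without, which overlapped.

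The BMP antagonists Bambi, Nog and Grem1 were not called in any SunTag comparison. Bambi, a pseudoreceptor that blocks type I receptors, lay between 205 and 389 normalised counts in all SunTag libraries. Nog, or noggin, did not exceed 33.7 in any library and was not tested in the Nanog/Otx2 model, and Grem1, or gremlin, did not exceed 20.7 and was not tested in the model of either SunTag line. Bmp1, a protease that cleaves the BMP inhibitor chordin, rose with Dox in LIF in the Nanog/Otx2 cells from 15.4, 19.8 and 88.0 to 75.2, 57.3, 160.1 and 132 (1.84 ± 0.58, adjusted p = 0.034), but the groups overlapped because C2 libraries were higher than C1 libraries in both, and 4 of 15 fits without a library lost the call.

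**Figure D4:**
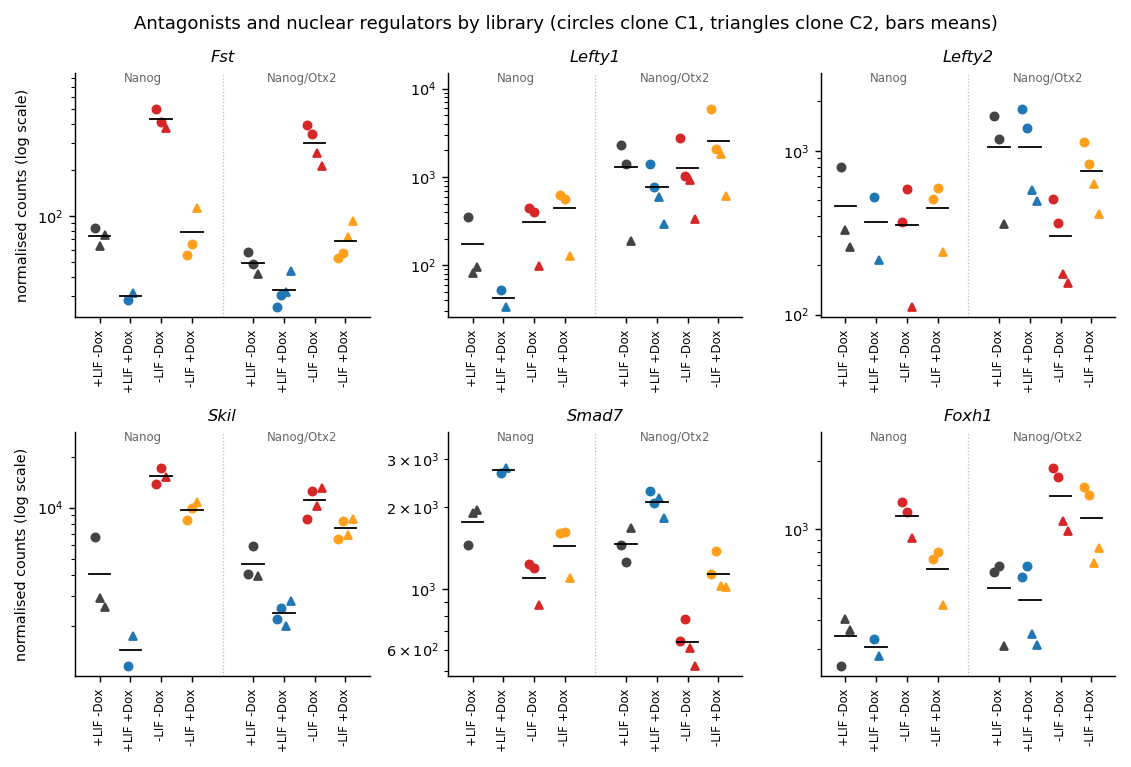
Normalised counts (y axis, log scale) of Fst, Lefty1, Lefty2, Skil, Smad7 and Foxh1 in every SunTag library by condition (x axis), with circles for clone C1, triangles for C2 and bars for means. Fst without LIF is high without Dox and low with it in both lines; Lefty1 and Lefty2 libraries are spread by clone, with circles above triangles.

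Receptors rose on withdrawal or were not called, and none fell. Of the 8 receptors 5 rose in Nanog cells (Acvr2b, Tgfbr1, Acvr1, Bmpr1a and Bmpr2) and 4 in Nanog/Otx2 cells (Acvr2a, Acvr2b, Acvr1 and Bmpr1a), with Tgfbr1 kept in 6 of 11 and Acvr2a in 11 of 15 fits without a library. Acvr2b, a type II receptor of activin, Nodal and BMPs, rose from 24.1, 62.0 and 54.9 to 310.2, 228 and 272 in Nanog cells (2.47 ± 0.31, adjusted p = 0.00011) and from 205, 199 and 268 to 513, 387, 382 and 332 in Nanog/Otx2 cells (0.85 ± 0.18). Its level with LIF was higher in every Nanog/Otx2 library than in any Nanog library. For this difference between lines, the guide and the clones cannot be told apart. Bmpr2, the BMP type II receptor, rose from 149.9, 114 and 149 to 625, 688 and 761 in Nanog cells (2.31 ± 0.24, adjusted p = 3e-05), while in Nanog/Otx2 cells it had 174, 215 and 393 with LIF and 273, 297, 396 and 406 without, which overlapped and were not called.

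The BMP type I receptors Acvr1 (Alk2) and Bmpr1a (Alk3) rose in both lines. Acvr1 went from 153, 166 and 139.8 to 353, 411 and 359 (1.27 ± 0.22) and from 111, 111 and 106 to 368, 409, 365 and 334 (1.71 ± 0.12, adjusted p = 3.1e-08). Bmpr1a went from 2857, 1586 and 1497 to 4838, 5317 and 4266 in Nanog cells (1.26 ± 0.23) and rose by 0.79 ± 0.07 on the log2 scale in Nanog/Otx2 cells. Neither gene's libraries with and without LIF overlapped. With Dox and no LIF, Bmpr1a fell by 0.34 ± 0.06 in Nanog/Otx2 cells, and the interaction was negative for Acvr1 (-0.80 ± 0.15) and Bmpr1a (-0.34 ± 0.09). Acvr1b (Alk4), the type I receptor of Nodal and activin, was not called on withdrawal and rose with Dox in Nanog/Otx2 cells, by 0.56 ± 0.12 with LIF and 0.45 ± 0.11 without.

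The Smads changed less. Smad4 rose by 0.86 ± 0.16 and 0.67 ± 0.07 on withdrawal, and Smad3 by 0.71 ± 0.19 and 0.59 ± 0.18, the second of these lost without the C1ON3-1 library with LIF and no Dox (0.44, adjusted p = 0.09). In the Nanog/Otx2 cells Smad1 rose by 0.46 ± 0.13 and Smad2 fell by 0.32 ± 0.12, a call kept in 10 of 15 fits without a library. Smad5 and Smad6, an effector and an inhibitor of BMP signalling, were not called in any SunTag comparison.

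Smad7, the inhibitory Smad that is induced by the pathways it blocks, fell from 1450.5, 1258 and 1671 to 647, 775, 607 and 521 on withdrawal in Nanog/Otx2 cells (-1.22 ± 0.14, adjusted p = 5.3e-06) and by 0.70 ± 0.19 in Nanog cells. Dox raised it in Nanog/Otx2 cells, with LIF to 2286, 2069.8, 2169 and 1822 (0.54 ± 0.14) and without to 1135, 1386, 1026 and 1019 (0.88 ± 0.13, adjusted p = 0.00038). In Nanog cells with LIF it had 1451, 1899 and 1954 without Dox and 2680.1 and 2784 with it, which did not overlap but were not called (adjusted p = 0.22). The fall in Nanog cells was lost without the C2-2 library with LIF and no Dox (-0.62, adjusted p = 0.051) or the C2-1 library with neither (-0.54, adjusted p = 0.063), and the rise with LIF without the C1ON3-2 library with LIF and no Dox (0.45, adjusted p = 0.083).

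Foxh1 is the forkhead partner of Smad2 and Smad3 at Nodal targets, and Skil (SnoN) represses Smad-dependent transcription. Foxh1 rose from 252, 406 and 363 to 1324, 1196 and 917 on withdrawal in Nanog cells (1.73 ± 0.25) and from 652, 693 and 310.2 to 1857, 1693, 1089 and 982 in Nanog/Otx2 cells (1.27 ± 0.37). Skil rose from 6676, 2925 and 2576 to 13747, 17139 and 15099 (1.89 ± 0.33) and from 4063, 5961 and 3944 to 8596, 12536, 10212 and 13089 (1.22 ± 0.18), without overlap. Skil fell with Dox in Nanog/Otx2 cells to 2209.8, 2543, 2000.2 and 2790.5 with LIF (-0.95 ± 0.18, adjusted p = 0.0017) and to 6522, 8368, 6856 and 8561 without (-0.51 ± 0.16, adjusted p = 0.042), the latter kept in 8 of 15 fits without a library. In Nanog cells with LIF the Dox libraries had 1154 and 1743 for Skil, all below those without (-1.50 ± 0.38, not called, adjusted p = 0.1; DESeq2 adjusted p = 0.0042). Foxh1 in Nanog cells without LIF had 745, 796 and 467 with Dox, also below those without (-0.75 ± 0.24, not called, adjusted p = 0.1; DESeq2 adjusted p = 0.036).

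Counted over the pathway, Dox without LIF raised 2 members (Inhbb and Bmp4) and lowered 2 (Fst and Furin) of 36 in the Nanog cells, beside 3.6% and 1.54% of all genes. In the Nanog/Otx2 cells it raised 6 of 34 (Inhbb, Bmp4, Pcsk6, Tgfb1, Smad7 and Acvr1b) and lowered 3 (Fst, Skil and Bmpr1a), beside 11.2% and 6.15% of all genes. With the block of clone and title number 14 members were called (33.4% of all genes). The median absolute log2 fold change was 0.45 for the members and 0.26 for all genes in the Nanog cells, and 0.22 and 0.21 in the Nanog/Otx2 cells. Inhbb, Bmp4 and Fst were called in both lines and in every fit that left out a library. These comparisons use the libraries without LIF and Dox as controls, which are also the changed libraries of the withdrawal, so a high value there lowers one change and raises the other.

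With LIF, Dox lowered 1 of 36 members in Nanog cells and raised none, beside 0.141% and 0.422% of all genes. The median absolute log2 fold change was 0.34 for the members and 0.30 for all genes, against 0.55 and 0.27 in Nanog/Otx2 cells. That member was Gdf1, with 10.7, 21.8 and 7.49 without Dox and 0 in both Dox libraries, a call kept in 1 of 11 fits without a library and shared with Lass1 as above. With the clone as a block 2 members were called (1.88% of all genes), the second being Lefty1. In Nanog/Otx2 cells Dox with LIF raised 9 of 34 members, beside 12.9% of all genes, and lowered 4, beside 10% of all genes. The raised members were Pcsk6, Acvr1b, Acvr2a, Tgfb1, Tgfbr1, Tgfbr2, Bmp1, Acvr1 and Smad7, and the lowered were Nodal, Gdf3, Skil and Bmp4. Tgfbr2, the type II receptor of TGF-beta, had 19.4, 18.7 and 13.9 without Dox and 49.1, 55.8, 43.1 and 54.4 with it (1.48 ± 0.40, adjusted p = 0.015). The call of Acvr2a (0.35 ± 0.12) was kept in 2 of 15 fits without a library, and that of Tgfbr1 (0.40 ± 0.12) in 11. The sum of 4 fibroblast markers (Col1a1, Col1a2, Thy1 and Lum, with Lum under 10 throughout) moved with Dox in LIF, from 142 to 506 up to 726 to 733 in Nanog cells and from 198 to 361 up to 604 to 804 in Nanog/Otx2 cells, and its part in these results was not tested. The sum of the primitive streak and mesendoderm markers given above was also higher with Dox in LIF in every library of both lines, and its part was likewise not tested.

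Whether the effect of Dox without LIF differed between the guides was tested as a difference of differences over the 26 SunTag libraries. No member was called of 36, beside 0.0308% of all genes, and 3 members had an unadjusted p under 0.05. These were Tgfb1 (1.59 ± 0.54), Pcsk6 (0.66 ± 0.19) and Gdf3 (-0.71 ± 0.29), where positive values mean a larger rise with both guides, with adjusted p between 0.48 and 0.83. DESeq2 also called no member. The study's methods set the guides against each other in another way, comparing their libraries with Dox and without LIF directly. Here the libraries without Dox of both lines were pooled for this, which the methods do not spell out. Fitted in that form, 11 of 36 members were called (6 higher and 5 lower with both guides), beside 32% of all genes. For Inhbb the difference was -0.36 ± 1.19 and for Bmp4 -0.41 ± 0.26. Column names of the 2 lines begin with different prefixes, and no label says what these stand for. The Nanog/Otx2 cells are also separately picked clones. Guide, clone and prefix cannot be told apart.

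In 44iN cells, removing Dox for 24 h lowered Nanog from 13366 and 18394 to 706 and 739 normalised counts. edgeR called no member of 34, beside 0% of all genes, although 6 members and 1023 genes in all had an unadjusted p under 0.05 and DESeq2 called 141 genes, none of them members. The median absolute log2 fold change was 0.28 for the members and 0.32 for all genes. Lefty1 had 27.7 and 54.4 with Dox and 86.4 and 166 after its removal, and Lefty2 147 and 187 against 358 and 476. Skil had 6891 and 4078 with Dox and 12524 and 9116 after removal, Smad7 2421 and 2561 against 1145 and 1588, and Inhbb 2953 and 2340.5 against 1824 and 1704. The 2 conditions did not overlap for any of these 5 genes, nor for Gdf1, Tdgf1, Fst, Pcsk6, Acvr1b, Tgfb1, Tgfb2, Tgfbr2 and Smad1. With 2 libraries in each condition this happens often by chance, and overlap was not counted over all genes. As Dox minus no Dox, the log2 fold changes were -1.52 ± 0.60 for Lefty1, -1.23 ± 0.37 for Lefty2, -0.89 ± 0.31 for Skil, 0.96 ± 0.25 for Smad7, 0.68 ± 0.21 for Inhbb and 0.78 ± 0.29 for Acvr1b, with adjusted p from 0.45 to 0.69. Bmp4 had 259 and 337 against 245 and 299, and Fst 77.3 and 106 against 154 and 139.

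A joint test used the 5 Nanog SunTag libraries with LIF and the 4 libraries above. It asked whether Dox, which raises Nanog in both systems, changed a gene in either. It called none of 36 members, beside 0.307% of all genes, and 7 had an unadjusted p under 0.05 (Tdgf1, Lefty1, Fst, Skil, Tgfbr2, Nog and Smad7). DESeq2 called 2 of them, Skil (adjusted p = 0.037) and Smad7 (adjusted p = 0.027). With Dox, Skil was lower in both systems (log2 fold change -1.46 in SunTag and -0.89 in 44iN cells) and Smad7 higher (0.64 and 0.95).

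Long-term 44iN cells without Dox had 7 of 35 members lower and none higher than Tg2a cells, beside 5.26% and 3.35% of all genes. The groups differ in cell line as well as in long-term Nanog loss, with G418 selection stated for the long-term cells. These cannot be told apart. The median log2 fold change was -0.38 over the members and -0.05 over all genes. Inhbb had 91.6 and 59.9 in the long-term cells and 1123, 1728 and 2327 in Tg2a cells (-4.58 ± 0.37, adjusted p = 0.0014), a call kept in all 5 fits that left out a library. Bmp4 had 111 and 54.5 against 287, 335 and 574 (-2.34 ± 0.42, adjusted p = 0.018), and Smad7 573 and 597 against 1068, 1629.6 and 2186 (-1.55 ± 0.28, adjusted p = 0.017). Bmp1 had 33.6 and 27.9 against 65.3, 141 and 189 (-2.17 ± 0.47). In 44iN cells it had 18.8 and 20.2 with Dox and 21.6 and 8.87 at 24 h of removal, also below every Tg2a library. Acvr1b had 323 and 392 against 542, 816 and 816 (-1.10 ± 0.24), and Smad3 219 and 224 against 372, 573 and 502 (-1.20 ± 0.25). The groups did not overlap for any of these 6 genes or for Nog, the remaining one, which had 6.23 and 2.04 against 13.3, 24.9 and 24.5. Overlap was not counted over all genes here either. Apart from Inhbb, each call was lost without either long-term library, and apart from Bmp4 also without the second Tg2a library, with adjusted p up to 0.3.

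**Figure D5:**
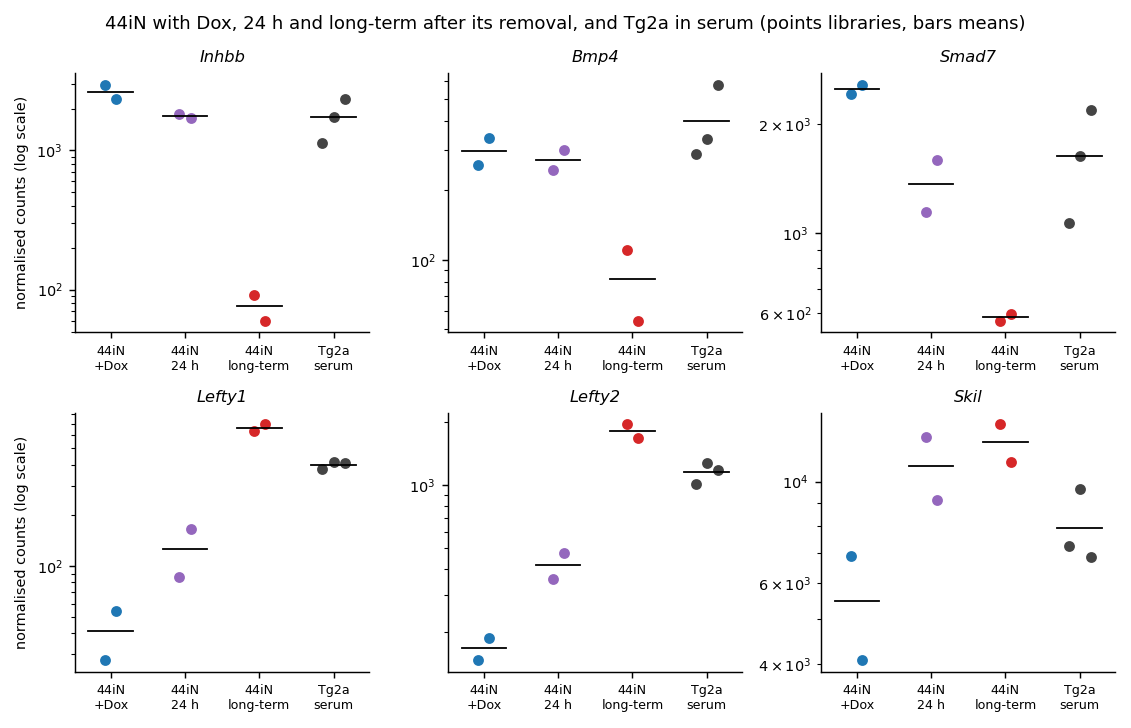
Normalised counts (y axis, log scale) of Inhbb, Bmp4, Smad7, Lefty1, Lefty2 and Skil in 44iN cells kept with Dox, deprived of it for 24 h or for the long term, and in Tg2a cells in serum (x axis); points are libraries and bars means. Inhbb, Bmp4 and Smad7 are lowest in the long-term cells, where Lefty1 and Lefty2 are highest.

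Lefty1 and Lefty2 stood on the other side in the long-term cells, with 636 and 696 against 377, 417 and 411 and 1958 and 1679 against 1021, 1281 and 1186, without overlap but not called (0.65 ± 0.18 and 0.57 ± 0.16, adjusted p = 0.064 and 0.068; DESeq2 adjusted p = 0.0033 and 0.021). In Tg2a cells Lefty1 was also above every 44iN library with Dox or 24 h after its removal. The summed level of 6 primitive endoderm markers was 8520 to 13018 in long-term cells and 6074 to 8559 in Tg2a cells, against 202 to 1289 in the other 44iN libraries. That of the ES cell markers was 48729 to 51537 in long-term cells and 75940 to 88574 in Tg2a cells. The part of both in these values was not tested.

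Of 47 further family genes outside the 38, 31 were tested in the Nanog cells and 10 rose and 4 fell on withdrawal, and of 32 tested in the Nanog/Otx2 cells 9 rose and 6 fell, beside 41.5% and 49.8% of all genes called in either direction. Bmpr1b, a BMP type I receptor, rose in both lines (2.94 ± 0.49 and 2.12 ± 0.27). With Dox and no LIF 1 rose in the Nanog cells (Fstl1, 1.26 ± 0.33), beside 3.6% of all genes. In the Nanog/Otx2 cells 5 rose and 1 fell, beside 11.2% and 6.15% of all genes. In long-term 44iN cells 3 of 27 were lower and none higher, beside 5.26% and 3.35% of all genes.

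Of 10 known BMP targets, 5 of 9 tested rose on withdrawal in Nanog cells and 5 of 7 in Nanog/Otx2 cells, and none fell. Of all genes, 20.2% rose and 21.3% fell in Nanog cells, and 24.6% and 25.2% in Nanog/Otx2 cells. Id2 and Id3, inhibitors of basic helix-loop-helix factors, rose by 2.38 ± 0.29 and 2.22 ± 0.43 in Nanog cells and by 1.93 ± 0.32 and 1.52 ± 0.35 in Nanog/Otx2 cells. Bmp4 itself fell in the same comparisons. With Dox and no LIF 3 fell in each line, beside 1.54% and 6.15% of all genes. These were Id1 (-1.55 ± 0.39 and -1.28 ± 0.34), Id2 (-1.10 ± 0.27 and -1.28 ± 0.28) and Msx1, which lay below 100 on average and was named after its values were seen. Msx2 rose in Nanog/Otx2 cells, beside 11.2% of all genes, and was named likewise. Bmp4 rose with Dox and no LIF in both lines. With LIF, Dox raised 3 of 7 in Nanog/Otx2 cells, beside 12.9% of all genes, and lowered none, while Bmp4 fell. In Nanog cells with LIF none of 9 was called, beside 0.563% of all genes.

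Of 10 known Nodal targets, 7 were tested in each line, and 4 rose and 2 fell on withdrawal in Nanog cells and 3 rose and 1 fell in Nanog/Otx2 cells. The shares over all genes on withdrawal were as given for the BMP targets. Eomes, a T-box factor of mesendoderm, rose by 1.74 ± 0.33 and 1.19 ± 0.27. Pmepa1, which limits TGF-beta signalling, had lower levels without LIF in both lines (-1.59 ± 0.26 and -1.32 ± 0.32). In long-term 44iN cells 3 of 8 were lower, and 2 of 7 BMP targets, Id1 (1.41 ± 0.31) and Gata3, were higher, Gata3 at under 100 on average and named after its values were seen. Of all genes, 5.26% were lower and 3.35% higher.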

How the data were processed

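RNA-seq of 35 mouse ES cell libraries in 12 conditions was used. The authors aligned reads with STAR to mm9, made estimated counts per gene with RSEM and rounded them before they were deposited (CASAVA 1.8 and DESeq2 are also named in the submitters' processing notes, most without versions). A second deposited table holds a signal per gene, here called normalised counts: the authors divided these counts by DESeq2 size factors. Levels in the text are from the second table and tests from the first. Library totals ranged from 6107512 to 92244655. Tg2a cells in 2i, ChIP-seq and ATAC-seq were not analysed here.

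A gene entered a model if all libraries of some condition had 10 normalised counts or more, and was then tested with edgeR 4.0.16 (quasi-likelihood test, TMM, R 4.3.3). P-values were adjusted over all genes tested (Benjamini-Hochberg), and a gene was called at an adjusted p under 0.05. Each SunTag line was fitted with LIF, Dox and their interaction, as in the study's methods. DESeq2 1.42.0, other filters and scalings, a replicate block and leaving out each library were alternatives. Figures were drawn with Python 3.11.15 and matplotlib 3.10.9.

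Each SunTag line has the same 2 clones in every condition, and the clones (with the number in the library title in Nanog/Otx2 cells) formed the blocks. No label says what that number stands for. One C2ON3 library with LIF and no Dox is numbered 1 in its title and 2 in its column name, and the title was used. Deviations from the condition means correlated on average by 0.148 within a block and -0.143 between blocks in Nanog cells, and by 0.299 and -0.100 in Nanog/Otx2 cells. Nothing states that libraries of a clone are separate cultures, so p-values measure the spread between libraries, which may be partly technical. The 38 members and the gene lists were chosen with earlier results of these data known. Per-library values were given for members called with a log2 fold change of at least 1 and a mean of at least 100 in the higher condition. Further values given were chosen after they were seen. Of each other list, the 2 largest called changes in a direction at that level could be named.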

Additional observations from a re-analysis of the deposited data

Results flagged for a closer look

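The LIF by Dox interaction was called for 2 members in the Nanog cells (1.93% of all genes), Inhbb (3.84 on the log2 scale) and Bmp4 (1.55). Both calls were lost in most fits that left out a library, as given above. In the Nanog/Otx2 cells it was called for 7 members (9.7% of all genes): Inhbb (3.95), Bmp4 (1.90), Nodal (0.77), Bmpr1a (-0.34), Acvr1 (-0.80), Bmp8b (-0.97) and Fst (-1.50). Of these, the calls of Inhbb and Bmp8b were lost in most such fits. Positive values mean a more positive effect of Dox without LIF. One library stood apart from its condition: Acvr1b had 1072 normalised counts in the C2ON3-2 library with LIF and Dox, against 1129.7 to 1135.2 in the other 3. This was 1 of 105 sets of 4 libraries looked at, and chance alone sets apart about 1 in 20.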

How the results depend on the processing

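No fold change reversed under any alternative. The count of members called on LIF withdrawal stayed within 1.5 times under every setting in both lines. For Dox with LIF in Nanog cells (1 called), DESeq2 called 3 (3.76% of all genes) and the replicate block 2 (1.88%). Testing without the filter called 2 there, and a fit of only the 2 conditions compared called 0. For these last 2 settings the share over all genes was not counted, here and below. For Dox without LIF in these cells (4 called), DESeq2 called 7 (9.66% of all genes) and the fit of only the 2 conditions 7. The replicate block called 4 for the interaction in Nanog cells (4.54% of all genes) in place of 2 (1.93%). In Nanog/Otx2 cells it called 14 for Dox without LIF (33.4% of all genes) in place of 9 (17.3%). For the interaction it called 20 (21.8%) in place of 7 (9.7%). With the C2ON3 library numbered as in its column name, an alternative chosen after seeing the data, it called 14 (34.6% of all genes) and 19 (21.3%). A direct contrast of the guides with Dox and without LIF called 11 members (32% of all genes) in place of 0. The joint test called 2 by DESeq2 (2.62% of all genes) and 2 without the filter, in place of 0. For long-term 44iN cells DESeq2 called 12 (15.4% of all genes) in place of 7.

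With each library left out in turn, the counts ranged from 0 to 1 (Dox with LIF) and from 0 to 2 (interaction) in Nanog cells, and from 7 to 14 (Dox with LIF) and from 4 to 7 (interaction) in Nanog/Otx2 cells. They ranged from 0 to 6 for 24 h of Dox removal and from 1 to 11 for long-term 44iN cells, where a condition left with 1 library was assumed to vary like the others. The share over all genes was not counted for these fits, and the causes were not tested. In 44iN and Tg2a cells the libraries share only a number: with it as a block, 6 members were called in place of 0 for 24 h of Dox removal (13.3% of all genes) and 20 in place of 7 for long-term cells (32.4%). In the former the same-number correlation was 0.492, but with 2 libraries in each condition both pairs must give the same value. In the latter it was 0.134 over 2 pairs. The block ended no call among the fold changes given.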
